A study of Arabidopsis thaliana with 6 samples.

Results

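The TIR-type NLR genes of Arabidopsis thaliana encode intracellular immune receptors built from an N-terminal TIR domain, a nucleotide-binding NB-ARC domain and leucine-rich repeats. The genes were taken from a list of 60 loci, and a locus was kept if the platform annotation gave it a probe set of its own, meaning one that names no other gene. This held for 45 loci, each with 1 probe set, of 13286 genes that had a probe set of their own and 22746 probe sets tested in all. Of the other loci, 6 occur only in 3 probe sets that each name more than 1 gene, and 9 are not listed in the annotation, and these 15 were not analysed here. The 9 include RPS6, TAO1, LAZ5, RLM1A, WRR4A, RMG1 and RRS1B (AT5G45050). The receptors of the RPP1 cluster on chromosome 3 and the RPP4/RPP5 cluster on chromosome 4 were also left aside. The annotation gives no protein domains, so family membership was taken from the list of loci.

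A receptor of this family is held inactive until it senses a pathogen effector or its action on another host protein. The assembled TIR domains then act as enzymes that use NAD+ to make small signalling molecules. These molecules are read by the EDS1 family, EDS1 with PAD4 or SAG101, which engage the helper receptors ADR1 and NRG1 and lead to salicylic acid synthesis and often to cell death. The genes commonly lie side by side in the genome and differ between natural accessions in sequence and in number.

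Transcripts were measured on 6 Affymetrix arrays of whole light-grown seedlings, 10 days old and of the Columbia ecotype. The transgenic group consisted of 3 samples that overexpressed OsTOP6A1, a rice cDNA for subunit A1 of topoisomerase 6, an enzyme that cuts both strands of DNA, lets another stretch of DNA through and reseals them. The wild type group had 3 samples grown in the same way, on sucrose-containing agar medium under continuous light. The labels call the 3 samples of a genotype biological replicates and state neither the number of independent lines nor which promoter drove the cDNA. In whole seedlings, fewer cells of a type and less RNA per cell cannot be told apart.

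Each value is the intensity of a probe set, not log transformed, and array medians lay between 37.5 and 39.3. Pearson correlations between arrays, taken over probe sets, were 0.991 to 0.995 within a genotype and 0.975 to 0.978 between genotypes. The leaf genes RCA, LHCB4.1 and PSAE-1 summed to intensities of 10474 to 11458 on transgenic arrays and 9475 to 11247 on wild type arrays, and the root genes PYK10, NAI2, EXPA7 and EXPA18 to 3845 to 4375 on transgenic and 3790 to 4329 on wild type arrays. These were the 3 of 6 leaf markers and 4 of 6 root markers with a probe set of their own, and limma called 0 of them, also at an unadjusted p under 0.05. The 3′ to 5′ intensity ratio of the GAPDH control was 1.31 to 1.46 on transgenic and 1.36 to 1.44 on wild type arrays, and that of the actin control was 16.4 to 22.2 on transgenic and 17.7 to 20.3 on wild type arrays. The ubiquitin control had a ratio of 2.44 to 2.99 on transgenic and 3.17 to 4.49 on wild type arrays. The actin ratio was far above the GAPDH ratio on every array, and the ubiquitin ratio did not overlap between the genotypes. The part of either in the results was not tested. Genotypes were compared with limma on log2(intensity + 16), and every log2 fold change below is the transgenic minus the wild type mean on that scale. The added 16 makes the log2 fold changes of dim probe sets smaller than those of the raw intensities. A gene was called when its p, adjusted over all 22746 probe sets, was under 0.05.

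The comparison asks which receptor transcripts were higher or lower in seedlings carrying the rice cDNA. Of the 45 TIR-type NLR genes, 10 rose in transgenic seedlings, 2 fell and 33 were not called. The 12 calls are 26.7% of the genes, beside 16.5% of all tested probe sets. The 10 rises are 22.2% of the genes, beside 8.18% of all probe sets, and the 2 falls are 4.44%, beside 8.31%. Among the 13286 genes with a probe set of their own, 7.48% rose and 7.85% fell. The genes were chosen with earlier results of these data known, so these shares are no test of the family. The median log2 fold change of the 45 genes was 0.01, beside -0.02 over all tested probe sets, so the middle of the family lay near 0 and the rises formed one tail of it. The log2 fold changes ranged from -0.52 to 1.56. A change of at least 2-fold was met by 3 genes, all of them rises. Of all probe sets 1.65% changed by that much, 1.17% higher and 0.479% lower. The count of rises was 6 when transgenic replicate 2, transgenic replicate 3 or wild type replicate 3 was left out. The count of falls was 1 without transgenic replicate 1, transgenic replicate 3 or wild type replicate 2. Without transgenic replicate 2 or wild type replicate 3 it stayed at 2, but AT2G17060 lost its call and AT3G51570 or AT4G09430, respectively, gained one.

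**Figure D1:**
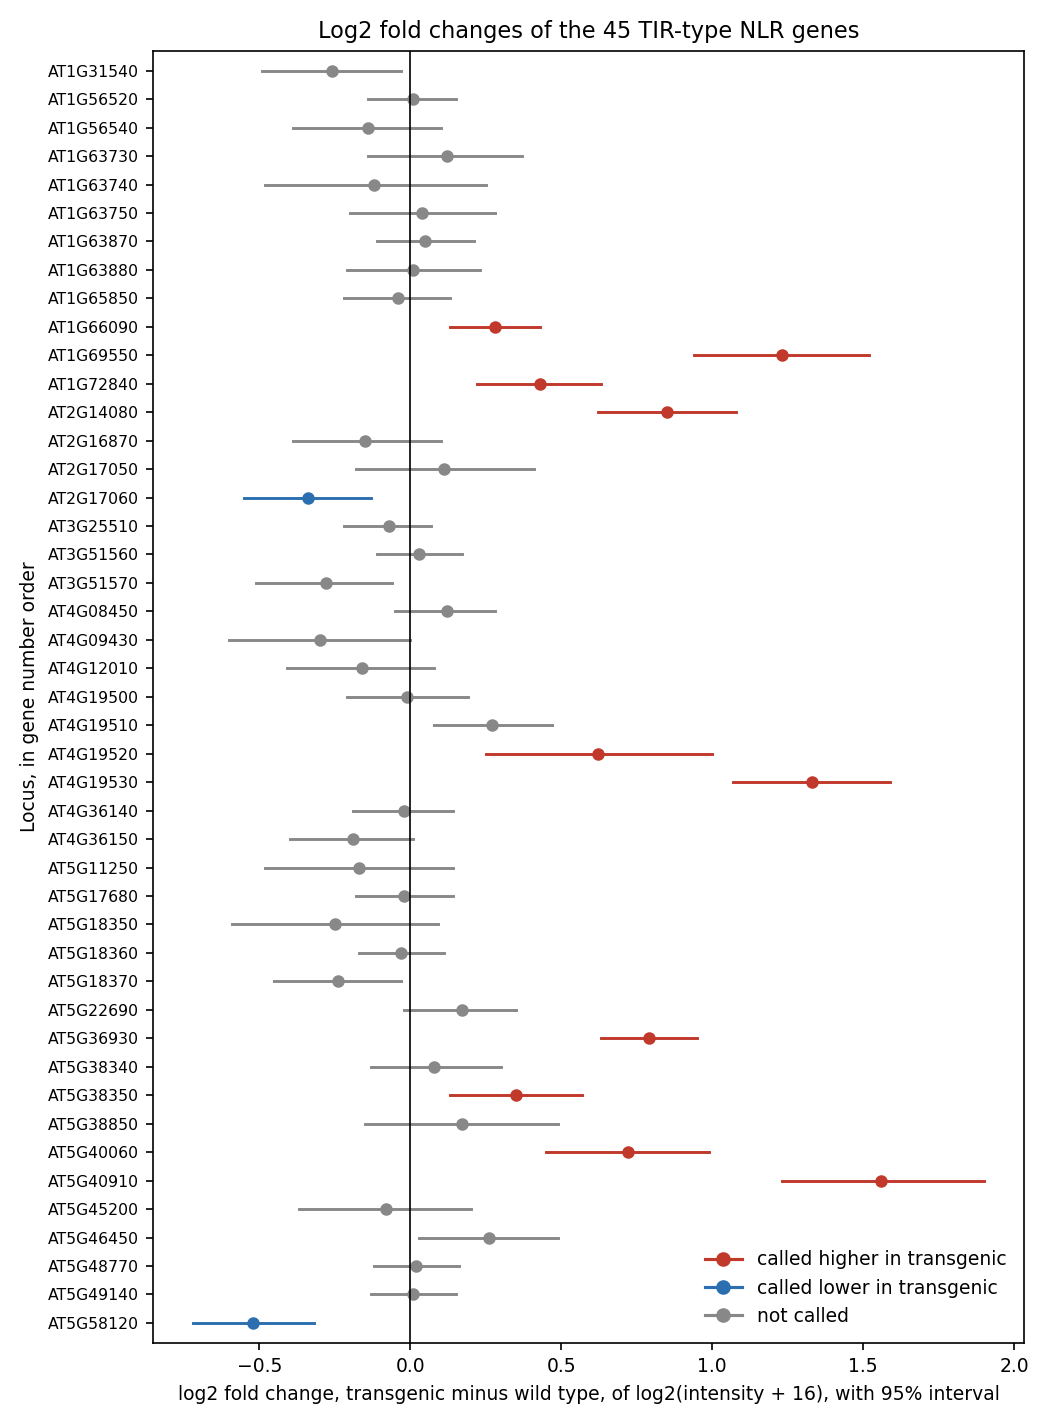
Log2 fold change (transgenic minus wild type, of log2(intensity + 16)) of each of the 45 TIR-type NLR genes, in gene number order from top to bottom. Points are the limma estimates and bars their 95% intervals, with 10 genes called higher, 2 called lower and 33 not called. The rises reach 1.56 and the larger of the 2 falls is -0.52.

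All 3 transgenic arrays lay above all 3 wild type arrays for 14 of the 45 genes, or 31.1%, beside 15.0% of all probe sets. The opposite order held for 4 genes, or 8.89%, beside 19.9%. The 12 called genes are among these 18. The other 6 did not pass the test and are described with the genes that were not called.

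AT5G40910 had the largest fold change of the family, with intensities of 43.5, 30.6 and 39.1 in transgenic seedlings, against 6.1, 0.4 and 0.3 in wild type. It was thus near the bottom of the intensity scale in wild type and well above it on each transgenic array. The log2 fold change was 1.56 (SE 0.14, limma adjusted p = 4.69e-04). AT1G69550 had intensities of 21.4, 33.5 and 28.7 in transgenic seedlings, against 0.4, 4.4 and 3.2 in wild type. The lowest transgenic array stood at several times the highest wild type array, and the log2 fold change was 1.23 (SE 0.12, limma adjusted p = 7.57e-04). AT2G14080 had intensities of 29.4, 28.4 and 33.0 in transgenic seedlings, against 6.5, 10.0 and 12.8 in wild type (log2 fold change 0.85, SE 0.10, limma adjusted p = 0.00154). AT5G40060 was measured at 26.7, 17.4 and 23.7 in transgenic seedlings, against 9.4, 4.8 and 8.0 in wild type. The genotypes stood apart by 0.72 on the log2 scale (SE 0.11, limma adjusted p = 0.00593). These 4 genes had mean intensities above 16 in transgenic seedlings and below 16 in wild type.

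AT5G36930 showed the same order at lower intensities, with 12.6, 15.2 and 12.3 in transgenic seedlings, against 0.5, 1.0 and 1.5 in wild type. The replicates of each genotype were close together, and the log2 fold change, 0.79, had one of the smallest errors among the calls (SE 0.07, limma adjusted p = 3.73e-04). Its mean was 13.4 ± 1.59 in transgenic and 1.0 ± 0.5 in wild type seedlings (SD, n = 3 each), so on every array it stayed below an intensity of 16. Between 34.9% and 36.0% of the probe sets of an array lay at or below that level. Detection calls were not used here, so whether such dim intensities are above background was not tested.

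**Figure D2:**
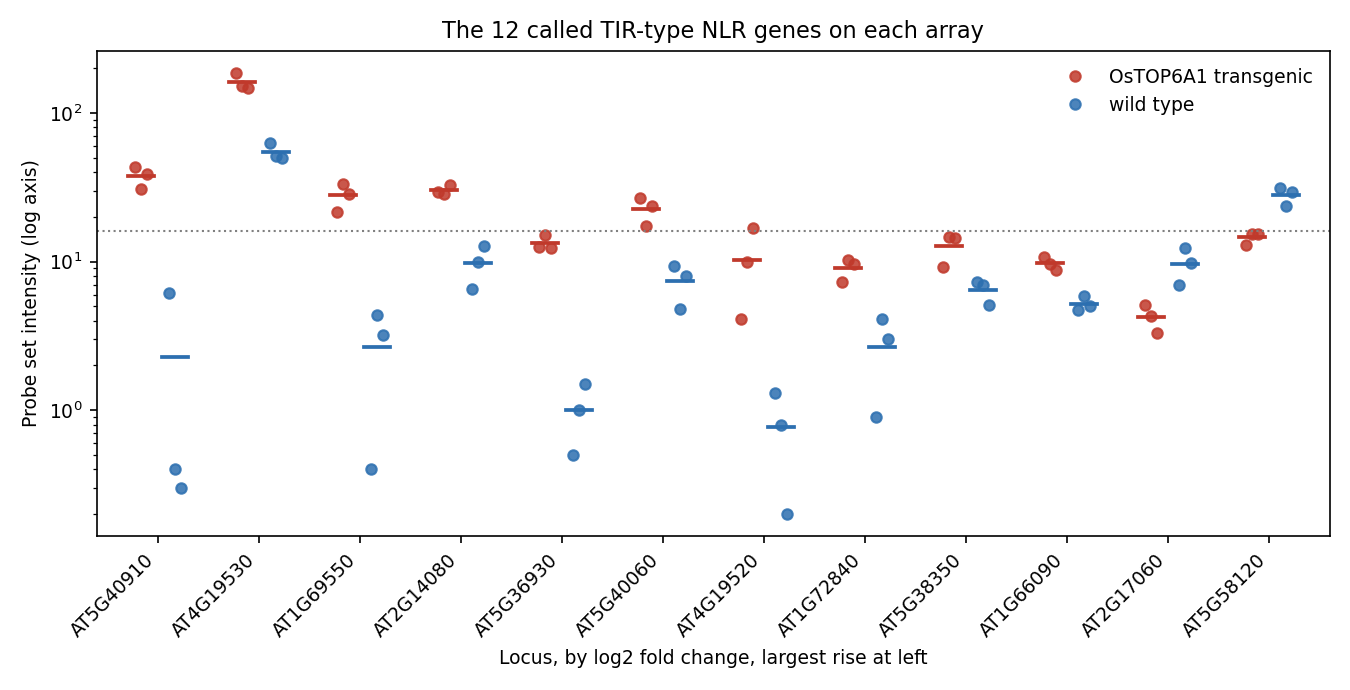
Probe set intensity (log axis) of the 12 called TIR-type NLR genes, ordered from the largest rise at left to the largest fall at right. Points are the 3 arrays of each genotype, transgenic left of wild type, short lines are their means, and the dotted line marks an intensity of 16. For each gene the points of the genotypes do not overlap, and AT4G19530 is the only one above 16 on all 6 arrays.

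The RPP2 neighbourhood on chromosome 4 held 4 of the genes side by side, and their values ran from flat to the second largest rise of the family. RPP2A (AT4G19500) and RPP2B (AT4G19510) are both needed for resistance to a strain of the downy mildew Hyaloperonospora arabidopsidis. RPP2A had intensities of 76.6, 87.4 and 80.9 in transgenic seedlings, against 72.8, 86.4 and 88.3 in wild type. The genotypes overlapped throughout, and the log2 fold change was -0.01 with a 95% interval of -0.21 to 0.19. RPP2B had 22.9, 23.3 and 19.6 in transgenic seedlings, against 13.4, 18.3 and 14.5 in wild type. Its genotypes did not overlap, but the difference of 0.27 on the log2 scale did not pass (SE 0.08, limma adjusted p = 0.0627). It passed without wild type replicate 2 (limma adjusted p = 0.0482) and when dim probe sets were left out (limma adjusted p = 0.0386). RPP2B met the latter filter only through its transgenic mean (21.9, against 15.4 in wild type), so that pass adds no support.

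AT4G19520 had intensities of 4.1, 10.0 and 16.8 in transgenic seedlings, against 1.3, 0.8 and 0.2 in wild type. The transgenic arrays differed among themselves, with a mean of 10.3 ± 6.36 (SD, n = 3), and the log2 fold change, 0.62, had the largest error of the calls (SE 0.16, limma adjusted p = 0.0379). AT4G19530, at the other end of the row from RPP2A, was measured at 186.3, 151.0 and 146.3 in transgenic seedlings, against 62.8, 51.0 and 49.6 in wild type. Its mean was 161 ± 21.9 in transgenic and 54.5 ± 7.25 in wild type seedlings (SD, n = 3 each), a ratio of 2.96. The log2 fold change was 1.33 (SE 0.11, limma adjusted p = 3.19e-04), the smallest adjusted p of the family. The intervals of the RPP2A and AT4G19530 fold changes, -0.21 to 0.19 and 1.07 to 1.59, did not overlap.

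**Figure D3:**
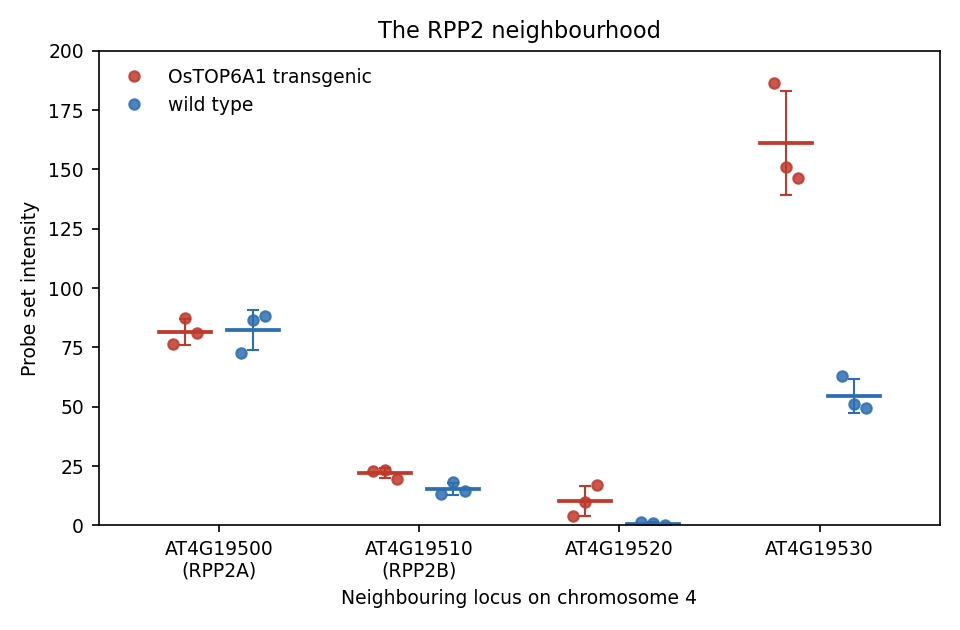
Probe set intensity of 4 neighbouring TIR-type NLR genes on chromosome 4, with transgenic points left of wild type points. Points are single arrays, lines the means and bars the SD (n = 3). RPP2A averaged 81.6 in transgenic and 82.5 in wild type seedlings, and AT4G19530 averaged 161 in transgenic and 54.5 in wild type seedlings.

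The smaller rises were of dim genes. AT1G72840 had intensities of 7.3, 10.2 and 9.6 in transgenic seedlings, against 0.9, 4.1 and 3.0 in wild type, which differ by 0.43 on the log2 scale (limma adjusted p = 0.0163). AT5G38350 had 9.2, 14.6 and 14.5 in transgenic seedlings, against 7.3, 7.0 and 5.1 in wild type, a difference of 0.35 (limma adjusted p = 0.0432). Its neighbour AT5G38340 was measured at 24.2, 19.2 and 19.0 in transgenic seedlings, against 17.2, 16.5 and 22.5 in wild type, and was not called (log2 fold change 0.08, 95% interval -0.13 to 0.30). AT1G66090 is described as a TIR-NBS protein gene without leucine-rich repeats and was counted here because it is in the list of 60 loci. It had 10.8, 9.6 and 8.8 in transgenic seedlings, against 4.7, 5.9 and 5.0 in wild type. The difference was 0.28 on the log2 scale (limma adjusted p = 0.0258). These calls were not kept when single arrays were left out, where fewer probe sets were called in all (2181 to 3433, against 3751). AT1G66090 lost its call whichever of the 6 arrays was left out (limma adjusted p up to 0.0794), though its log2 fold change stayed between 0.25 and 0.31. AT5G38350 and AT4G19520 lost theirs without any array but transgenic replicate 1 (up to 0.135 and 0.112). AT1G72840 lost its call without transgenic replicate 2 or 3 or wild type replicate 3 (up to 0.0635).

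Among the falls, AT5G58120 had intensities of 12.9, 15.4 and 15.4 in transgenic seedlings, against 31.2, 23.5 and 29.4 in wild type. AT5G58120 is DM10, a receptor gene known from hybrid necrosis, in which alleles of different accessions set off an immune response in their offspring. Each transgenic array lay below each wild type array, and the log2 fold change was -0.52 (SE 0.09, limma adjusted p = 0.00678). AT2G17060 was dimmer, with 5.1, 4.3 and 3.3 in transgenic seedlings, against 7.0, 12.3 and 9.8 in wild type. This fall, -0.34 on the log2 scale (SE 0.09, limma adjusted p = 0.0405), lost its call when any array but wild type replicate 1 was left out (up to 0.127). The neighbour of AT2G17060 within the family, AT2G17050, was not called, with a log2 fold change of 0.11 (95% interval -0.18 to 0.41).

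Of the 12 calls, 7 were kept without each single array. These were the rises of AT1G69550, AT2G14080, AT4G19530, AT5G36930, AT5G40060 and AT5G40910 and the fall of AT5G58120. AT5G40060 missed the threshold when variances were not moderated (limma adjusted p = 0.0593), while the other 6 passed in every alternative they entered. AT1G69550, AT2G14080, AT5G40910 and AT5G58120 entered the alternative without dim probe sets only through the genotype where they were higher.

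Besides DM10, the receptor genes chosen for a known function or name were RPP2A, RPP2B, RLM1B, WRR4B, DSC1, DSC2 and SADR1, and none of these was called. RLM1B (AT1G63880), which contributes to resistance to the fungus Leptosphaeria maculans, had intensities of 103.2, 106.0 and 114.8 in transgenic seedlings, against 95.4, 122.8 and 104.5 in wild type. It was bright and overlapped fully, with a log2 fold change of 0.01 (95% interval -0.21 to 0.23). WRR4B (AT1G56540), which confers resistance to white rust, had 5.0, 2.5 and 1.3 in transgenic seedlings, against 5.6, 6.6 and 2.6 in wild type. The log2 fold change was -0.14 (95% interval -0.39 to 0.10).

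DSC1 (AT4G12010) and DSC2 (AT5G18370) are receptor genes needed for the autoimmunity of plants that lack the transcription factor CAMTA3. DSC1 was measured at 29.2, 33.5 and 31.7 in transgenic seedlings, against 46.4, 32.7 and 33.3 in wild type, so that wild type replicate 1 stood above the other 5 arrays. Its log2 fold change was -0.16 (95% interval -0.41 to 0.08). DSC2 had 10.5, 10.8 and 6.0 in transgenic seedlings, against 13.1, 14.2 and 13.2 in wild type. Its genotypes did not overlap, but the difference of -0.24 on the log2 scale did not pass (SE 0.09, limma adjusted p = 0.118). SADR1 (AT4G08450), identified through its part in the autoimmunity of a helper receptor mutant, was at 2.3, 1.1 and 3.0 in transgenic seedlings, against 0.7, 0.1 and 1.4 in wild type, and was not called (log2 fold change 0.12, limma adjusted p = 0.323).

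Among the genes that were not called, 5 had an unadjusted p under 0.05. Besides RPP2B and DSC2 these were AT5G46450, AT1G31540 and AT3G51570. AT5G46450 had intensities of 48.4, 61.9 and 50.0 in transgenic seedlings, against 44.1, 45 and 36.4 in wild type, without overlap (log2 fold change 0.26, limma adjusted p = 0.121). AT3G51570 had 0.4, 4.2 and 0.3 in transgenic seedlings, against 5.6, 4.6 and 5.9 in wild type, also without overlap (log2 fold change -0.28, limma adjusted p = 0.0891). It was called lower without transgenic replicate 2 (limma adjusted p = 0.0269), the transgenic array nearest to wild type. AT1G31540 had 5.1, 0.7 and 2.7 in transgenic seedlings, against 7.5, 7.1 and 4.9 in wild type, with overlap (log2 fold change -0.26, limma adjusted p = 0.122). AT5G22690 and AT3G51560 completed the genes without overlap, with log2 fold changes of 0.17 and 0.03 and intensities of 24.7, 27.1 and 22.8 for AT5G22690 in transgenic seedlings, against 21.8, 22.0 and 17.6 in wild type. AT4G09430 had 0.6, 1.0 and 0.8 in transgenic seedlings, against 7.6, 6.6 and 0.6 in wild type, so that wild type replicate 3 stood with the transgenic arrays. It was not called over all arrays (log2 fold change -0.30, limma adjusted p = 0.168) and was called lower without that array (limma adjusted p = 0.0142).

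The other 6 neighbourhoods held no call. The genes AT1G63730, AT1G63740 and AT1G63750 had log2 fold changes of 0.12, -0.12 and 0.04, and AT1G63870, beside RLM1B, had 0.05. AT5G18350 and AT5G18360, beside DSC2, had -0.25 and -0.03. AT4G36140 and AT4G36150 had -0.02 and -0.19, and AT1G56520, near WRR4B, had 0.01. AT3G51560 and AT3G51570 form the last of the 6. AT4G36140 illustrates a gene with close replicates and no call, with intensities of 20.7, 21.7 and 21.5 in transgenic seedlings, against 19.5, 24.8 and 21.7 in wild type. Counting genes with another of the 45 at most 5 protein-coding genes away as neighbours, 22 lay in 9 neighbourhoods and 23 had none of the 45 within reach. Listed loci that were not measured and related genes outside the list were not counted. A gene without a neighbour here can therefore still lie in a cluster, as AT1G72840 lies 5 genes from AT1G72890, a gene of the TIR and TIR-NBS list. The neighbourhoods held 4 of the 12 calls and the other genes 8, and in none of the 9 neighbourhoods were all members called. By chromosome, 3 of 12 genes were called higher on chromosome 1, 1 of 4 on chromosome 2, 0 of 3 on chromosome 3, 2 of 9 on chromosome 4 and 4 of 17 on chromosome 5.

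Mean intensities were at or below 16 in both genotypes for 28 of the 45 genes, and 6 of these were called. They were above 16 in both genotypes for 10 genes, of which AT4G19530 alone was called. In 5 genes the mean was above 16 in transgenic seedlings only, and 4 of these were called, while in 2 genes, AT5G58120 and AT5G11250, it was above 16 in wild type only. The last 2 classes are defined by a difference between the genotypes, so calls in them are no result about brightness. AT5G11250 was not called, with 15.0, 20.7 and 11.3 in transgenic seedlings, against 23.4, 14.8 and 20.4 in wild type. In 5 genes, AT1G56520, AT3G25510, AT3G51560, AT5G48770 and AT5G49140, no array exceeded an intensity of 2.0. Their log2 fold changes lay between -0.07 and 0.03. The remaining genes, AT1G65850, AT2G16870, AT5G17680, AT5G38850 and AT5G45200, had log2 fold changes of -0.04, -0.15, -0.02, 0.17 and -0.08 and adjusted p values of at least 0.410.

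Calls were also counted in related receptor families, where the shares stand beside 8.18% higher and 8.31% lower of all probe sets. In a list of TIR and TIR-NBS genes without leucine-rich repeats, 23 of 35 loci were measured, and 2 rose and 0 fell (8.70% and 0%), while 5 had an unadjusted limma p under 0.05. The rises were AT1G72890, with 28.1, 30.7 and 27.3 in transgenic seedlings, against 15.3, 7.0 and 9.2 in wild type, and AT1G72940, with 80.2, 83.9 and 73.8 in transgenic seedlings, against 55.4, 38.8 and 53.2 in wild type. Both lie on chromosome 1, AT1G72890 at 5 genes from AT1G72840. Their log2 fold changes were 0.77 and 0.56 (limma adjusted p = 0.00465 and 0.0141). In a list of CC-type and RPW8-type NLR genes, whose products carry a coiled-coil or RPW8-like domain in place of TIR, 25 of 54 loci were measured, and 2 rose and 3 fell (8% and 12%). AT5G05400 and AT1G53350 rose by 0.67 and 0.35 on the log2 scale, and AT1G59780, AT1G59620 and AT5G43740 fell by 0.66, 0.54 and 0.45. Median log2 fold changes were 0.01 for the TIR-type NLR genes, 0.03 for the TIR and TIR-NBS genes and -0.03 for the CC-type and RPW8-type genes. Whether these shares or medians differ was not tested.

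**Figure D4:**
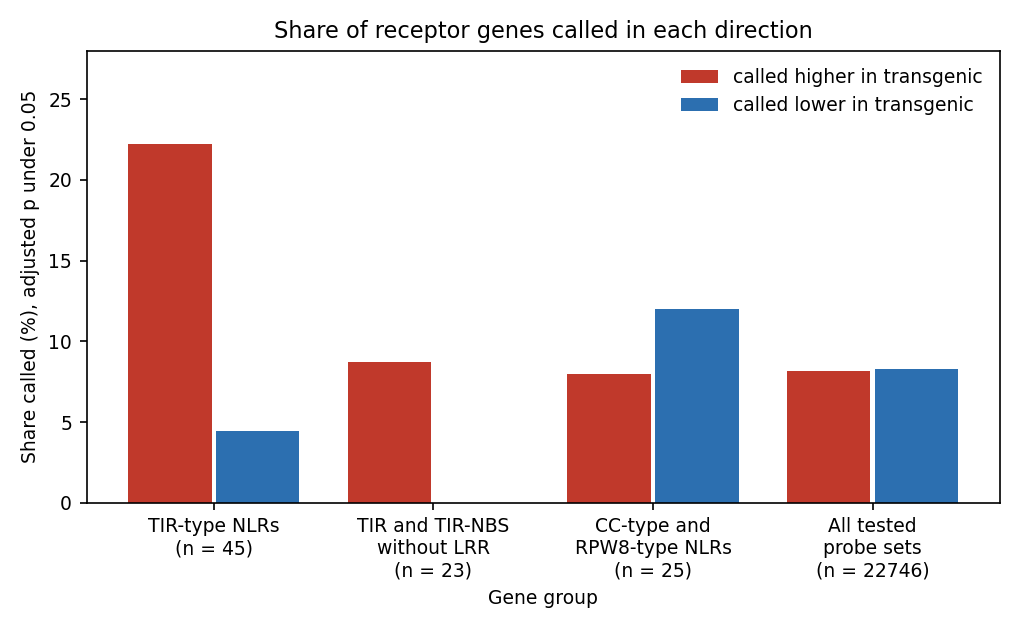
Share of genes called higher and lower in transgenic seedlings (limma adjusted p under 0.05) among 45 TIR-type NLR genes, 23 TIR and TIR-NBS genes without leucine-rich repeats, 25 CC-type and RPW8-type NLR genes and all 22746 tested probe sets. The TIR-type NLR genes had 22.2% called higher and 4.44% called lower, beside 8.18% and 8.31% of all probe sets.

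In the annotation used here, few genes of the pathway downstream of these receptors had a probe set of their own. It gave 1 gene for 13436 of the 22746 tested probe sets. Whether probe sets without a name measure the missing genes was not tested. Of 9 genes of the EDS1 node and helper receptors 2 were measured, of 15 chaperones and regulators of receptor activity 1, and of 20 genes of salicylic acid synthesis and response 1. The helper receptor genes are also in the list of CC-type and RPW8-type genes. EDS1, PAD4, PR1, PR2 and PR5 were not among them and were not analysed here. SAG101 (AT5G14930), a partner of EDS1, had intensities of 13.1, 18.8 and 21.6 in transgenic seedlings, against 30.9, 18.8 and 25.3 in wild type. The difference of -0.27 on the log2 scale did not pass (95% interval -0.59 to 0.04, limma adjusted p = 0.217). AT3G48080, the copy of EDS1 known as EDS1B, had 7.7, 16.8 and 6.0 in transgenic seedlings, against 19.4, 12.5 and 10.8 in wild type (log2 fold change -0.22, 95% interval -0.61 to 0.17, limma adjusted p = 0.433). Replicates of both genes overlapped between the genotypes. SGT1A (AT4G23570), a co-chaperone of receptors, averaged 84.4 ± 5.80 in transgenic and 88.1 ± 19.2 in wild type seedlings (SD, n = 3 each). WRKY53 (AT4G23810), a transcription factor gene induced by salicylic acid, averaged 24.5 ± 7.68 in transgenic and 22.0 ± 4.28 in wild type seedlings (SD, n = 3 each). Of these 4 genes 0 were called in limma, and 0 had an unadjusted p under 0.05.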

How the data were processed

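Per the labels' protocols, biotin-labelled cRNA from TRIzol-extracted total RNA was hybridised to Affymetrix arrays. The deposited numbers are linear probe set intensities. The software behind them is not given in the sources used here. Every array had a mean of 100.0 after trimming 2% at each end, so no further normalization was applied. From 22810 probe sets 64 controls were left out, with no filter on low values. Names came from the platform annotation and the RefSeq gene table of TAIR10.1, and 13436 tested probe sets had 1 gene there. The genotypes were compared on log2(intensity + 16), 2-sided, with limma 3.58.1 (lmFit and eBayes; R 4.3.3), over all 6 arrays, with Benjamini-Hochberg adjustment over 22746 probe sets. The script was tested on simulated data. The number of arrays limits the precision.

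The genes and lists were chosen with earlier results of these data known. Every called TIR-type NLR gene and a fixed set with a known function or name were named, and others are given by group or singled out after their values were seen, as were the neighbourhood rule and the intensity classes. The arrays were treated as unpaired. Deviations of same-numbered arrays from their genotype means correlated at 0.191, 0.0572 and 0.113. Those of differently numbered arrays were not computed, so these values cannot decide whether replicate numbers pair the arrays. Results with a replicate block are given below.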

Additional observations from a re-analysis of the deposited data

How the results depend on the processing

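Alternatives to the analysis covered pseudocounts of 1 and 64, quantile normalization, centred array medians, dim or suffixed probe sets left out, an intensity trend, robust variance, array weights, no variance moderation, a replicate block, all probe sets of a locus and each array left out. The median log2 fold change over all probe sets stayed between -0.048 and -0.002. None reversed the direction of a called gene or of a gene that became called. Among TIR-type NLR genes, 6 rises were called without dim probe sets, where 6 of the 12 called genes were not tested and AT4G19510 was added. All of these 6 rises but AT4G19530 stayed in only through a transgenic mean above 16. The fall of AT5G58120 stayed in only through its wild type mean, so this setting is no check of these genes. Without variance moderation 6 rises were called. The count of falls was 1 with either pseudocount, centred medians, no dim probe sets, no variance moderation or the replicate block. Changes of at least 2-fold numbered 7 with a pseudocount of 1 and 0 with 64, by construction of the scale, where 16 genes still had an unadjusted limma p under 0.05. Over all probe sets 2143 were called with a pseudocount of 1 and 1930 without moderation, against 3751. With the replicate block 8 rises, 1 fall and 3592 probe sets were called. The TIR and TIR-NBS list had 0 calls without moderation (5 at an unadjusted p under 0.05), and the CC-type list 3 without dim probe sets and 2 without moderation. Leaving out single arrays gave 6 to 9 rises, 1 to 2 falls, 2181 to 3433 called probe sets, and 1 to 3 and 4 to 6 calls in the 2 lists. Where not stated, the cause was not tested.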

Other observations

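Genes outside the list of 60 loci that lie beside the called receptors were examined after the calls were seen. Within 5 protein-coding genes on either side of the 12 called receptors, 52 other genes had a probe set of their own. In transgenic seedlings 10 of these rose and 0 fell in limma, and 1 had a negative difference at an unadjusted p under 0.05. The 10 are 19.2% of these neighbours, while 8.18% of all probe sets were called higher and 8.31% lower. They lay beside 6 of the 12 receptors and include AT1G72890 of the TIR and TIR-NBS list, so the neighbours are not free of related genes. AT1G66100, a thionin family gene next to AT1G66090, averaged 23.5 ± 3.60 in transgenic and 2.73 ± 2.16 in wild type seedlings (SD, n = 3 each). AT1G66130, 4 genes from AT1G66090, averaged 86.9 ± 10.2 in transgenic and 34.7 ± 1.12 in wild type seedlings (SD, n = 3 each), and AT1G72820, 2 genes from AT1G72840, averaged 71.5 ± 6.49 in transgenic and 32.7 ± 2.15 in wild type seedlings (SD, n = 3 each). The thionin gene THI2.2 (AT5G36910), 3 genes from AT5G36930, averaged 66.6 ± 10.8 in transgenic and 26.8 ± 12.1 in wild type seedlings (SD, n = 3 each). Around AT5G40910, AT5G40060, AT4G19520, AT4G19530, AT2G17060 and AT5G58120 none of the measured genes outside the list was called. Some of these windows held few measured genes, with only AT5G40860 and AT5G40960 around AT5G40910. The 7 measured around AT5G58120 had log2 fold changes between -0.11 and 0.25. Windows of neighbouring receptors overlap, and whether the share differs from that of other genes was not tested.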
